A study of Arabidopsis thaliana with 8 samples.

Results

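The expression of 6 nuclear genes for proteins of the plastid ribosome was followed in RNA of the Arabidopsis thaliana psah2k double mutant and of the wild type (WT), both of ecotype Columbia 0. The members were the genes that GEO's platform annotation assigns alone to a feature of the array: AT5G65220 (RPL29), AT3G54210 (RPL17), AT4G01310 (RPL5), AT1G29070 (RPL34), AT3G13120 (RPS10) and AT1G64510 (RPS6). They make up 6 of the 691 genes with a feature of their own, and each had 1 feature. Total RNA of 4 psah2k and 4 WT samples was measured, 1 array a sample, numbered 1 to 4 within each genotype. The line's name points to subunits H and K of photosystem I, whereas the sample description gives E1 and K as the missing ones. None of the 3 genes behind these names, PSAE1, PSAH2 and PSAK, had a feature of its own, so the genotype was not checked on a targeted transcript. The sources used here give no organ, plant age, growth conditions or mutant alleles, and do not say whether a genotype's samples came from separate plants. The p-values therefore reflect sample-to-sample spread alone, part or all of which may be technical.

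The plastid ribosome is of the bacterial type, with a large and a small subunit, and translates the messages of the plastid genome, among them core proteins of both photosystems. Its RNAs and some of its proteins are encoded in the plastid. The other ribosomal proteins, the 6 described here among them, are made in the cytosol from nuclear genes and imported. In green tissue this ribosome supplies the plastid-encoded parts of the photosynthetic machinery.

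The deposited values were intensities on a linear scale with no stated unit, and 0 was the lowest value given. The psah2k arrays were dimmer at the median and at the upper quartile, though the highest value was 100 in both genotypes. Array medians lay between 0.0506 and 0.0582 in psah2k, against 0.304 to 0.336 in WT, and between 739 and 1014 of the 3439 features were at 0 on a psah2k array, against 448 to 472 on a WT array. The scaling of the arrays is likewise not stated, and how far this shift between arrays entered a member's difference was not tested. Each member is therefore given as its deposited intensity, as its percentile rank among the features of its own array and, where it was above 0 often enough, as a ratio to other members on the same array. Intensities of different features do not compare transcript amounts. In RNA of whole samples, fewer cells of a type and less RNA per cell cannot be told apart.

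The members did not move as 1 block. RPL29 was lower in psah2k both in intensity and in rank. RPL17 and RPL5 stood higher in rank in psah2k, RPL5 at a lower deposited intensity. The ratio of RPL29 to each of them was lower on every psah2k array than on any WT array. Genotypes that did not overlap were common, in rank for 52.4% of features above 0 on any array and in ratio for 56.3% of pairs of tested features. These patterns alone therefore do not mark the members out. RPS10 was above 0 on every WT array and on a single psah2k array. RPL34 and RPS6 were at 0 on arrays of both genotypes, and neither was called in rank with all 8 arrays (limma).

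RPL29 is a protein of the large subunit that in Escherichia coli lies beside the exit of the peptide tunnel. Its deposited intensity was 0.504, 0.487, 0.286 and 0.317 on psah2k arrays 1 to 4, against 2.32, 1.77, 1.94 and 1.86 on WT arrays 1 to 4. Every psah2k array was below every WT array, a pattern shared by 72.6% of the 2353 features tested in log2 intensity. Within psah2k, arrays 1 and 2 were higher than arrays 3 and 4. The means were 0.399 ± 0.113 in psah2k and 1.97 ± 0.243 in WT (SD, n = 4 each), so the WT mean was 4.95 times that of psah2k.

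RPL17, also of the large subunit, has its bacterial counterpart near the same tunnel exit. It gave 0.335, 0.549, 0.428 and 0.400 on psah2k arrays 1 to 4 and 0.536, 0.556, 0.483 and 0.498 on WT arrays 1 to 4. The genotypes overlapped, since psah2k 2 was as bright as the WT arrays while the other 3 psah2k arrays lay below them all. The means were 0.428 ± 0.0897 in psah2k and 0.518 ± 0.0336 in WT (SD, n = 4 each).

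RPL5 is the large-subunit protein that in Escherichia coli binds the 5S ribosomal RNA. Its intensity was 0.222, 0.139, 0.183 and 0.202 on psah2k arrays 1 to 4, against 0.406, 0.395, 0.376 and 0.394 on WT arrays 1 to 4. All psah2k arrays were below all WT arrays, as for RPL29, but the distance was shorter. The means were 0.187 ± 0.0354 in psah2k and 0.393 ± 0.0126 in WT (SD, n = 4 each), and the WT mean was 2.10 times that of psah2k.

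These 3 genes were the members above 0 on all 8 arrays, as were 52.5% of all features. Their coefficients of variation between arrays of a genotype were 28.3% (RPL29), 20.9% (RPL17) and 18.9% (RPL5) in psah2k, and 12.3%, 6.47% and 3.21% in WT in the same order. The median over tested features was 43.2% in psah2k and 10.9% in WT. The 3 members lay below that median in psah2k, and RPL29 lay slightly above it in WT. The sets are unlike, since tested features could hold an array at 0 in a genotype, which raises the coefficient, and these members held none.

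RPL34, a protein of the large subunit, was read unevenly. Its intensity was 0.178 on psah2k 1, 0 on psah2k 2 and 3 and 0.0119 on psah2k 4, against 0 on WT 1 and 0.0911, 0.112 and 0.137 on WT 2 to 4. The highest value of either genotype came from psah2k 1, and both genotypes held arrays at 0. Exactly 2 psah2k arrays and exactly 1 WT array at 0 were found in 4 of 3439 features (0.116%), RPL34 among them. That rule copies the pattern of RPL34 itself, so the small share does not mark the gene out.

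RPS10 is a small-subunit protein, known in Escherichia coli also as a transcription antitermination factor. It was listed at 0 on psah2k 1, 2 and 4 and at 0.0110 on psah2k 3, against 0.213, 0.181, 0.121 and 0.147 on WT arrays 1 to 4. Every psah2k array was below every WT array, as for 67.4% of the features above 0 on any array. Being at 0 on 3 or 4 psah2k arrays while above 0 on all 4 WT arrays was seen in 258 features, 7.50% of all.

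RPS6, whose bacterial counterpart sits on the platform of the small subunit, was listed at 0 on all 4 WT arrays and on psah2k 1, 2 and 4. On psah2k 3 it read 0.0335, below the median of that array. This pattern, 4 WT arrays and 3 psah2k arrays at 0, was found in 121 features (3.52%). RPS10 and RPS6 were both above 0 on psah2k 3 alone among the psah2k arrays. With 3 or more arrays at 0 in all, RPL34, RPS10 and RPS6 had fewer than 3 values above 0 in a genotype and entered no log2 test.

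**Figure D1:**
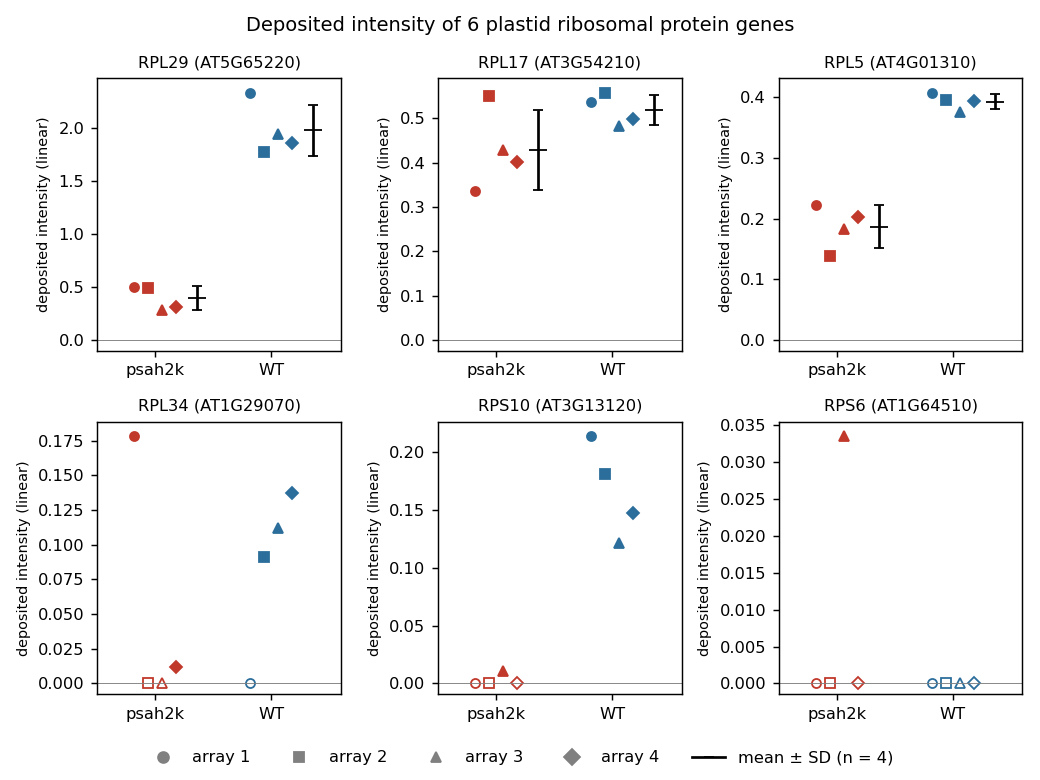
Deposited intensity (linear, no stated unit) of the 6 genes on each array, psah2k left and WT right, with open symbols for values of 0, a marker shape for each array number, and mean ± SD (n = 4) for the 3 genes above 0 on all 8 arrays. RPL29 lies at 0.286 to 0.504 in psah2k and 1.77 to 2.32 in WT, while RPS10 is at 0 on 3 psah2k arrays and RPS6 on all WT arrays.

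Within-array percentile ranks, which do not depend on a scale factor per array, gave the members' differences between genotypes another order than their intensities did. A rank of 100 is the brightest feature of an array, and features at 0 share the lowest mid-rank. Of the members, 2 rose, 1 fell and the other 3 did not pass the test (limma on percentile ranks, Benjamini-Hochberg adjusted over 3305 features). Of all features tested in this way 41.6% were called, 22.1% as higher and 19.5% as lower in psah2k, and the median difference was 1.42 points. A call of 3 in 6 members is near that background.

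RPL17 was at rank 82.4, 87.0, 86.7 and 85.7 on psah2k arrays 1 to 4, against 67.9, 69.1, 67.6 and 68.6 on WT arrays 1 to 4. All psah2k arrays lay above all WT arrays. The rank rose by 17.2 points (SE 1.36, 95% confidence interval 14.0 to 20.4, limma adjusted p = 9.08e-05).

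RPL5 was at rank 77.3, 69.5, 75.01 and 76.4 on psah2k arrays 1 to 4, against 57.7, 56.8, 58.0 and 59.97 on WT arrays 1 to 4. The genotypes did not overlap, and psah2k 2 was nearest to WT. The rank rose by 16.4 points (SE 1.96, interval 11.8 to 21.1, limma adjusted p = 0.000593), so RPL5 was lower in deposited intensity and higher in rank on the same arrays.

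RPL29 was at rank 86.8, 85.9, 81.9 and 83.1 on psah2k arrays 1 to 4, against 95.4, 93.6, 94.8 and 94.4 on WT arrays 1 to 4. It stayed among the brighter features of every array, yet each psah2k array lay below each WT array. The rank fell by 10.1 points (SE 1.44, interval of the difference −13.5 to −6.69, limma adjusted p = 0.00138). Genotypes that do not overlap in rank, as for these 3 genes, were found for 52.4% of the 3305 features. RPS6 did not overlap either, though on every array but psah2k 3 it stood at the rank shared by features at 0. For each of these 3 genes and for RPS6, the exact permutation test over arrays gave p = 0.0286. That is the lowest p possible with 4 arrays a genotype, and it was 0.0546 after adjustment over all features.

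The ranks of the 3 dim members moved with the number of features at 0, whose shared rank was 10.7 to 14.7 on psah2k arrays and 6.51 to 6.86 on WT arrays. RPS10 averaged 17.0 in psah2k and 28.6 in WT, a difference of −11.6 points (interval −21.5 to −1.70) that missed the threshold (limma adjusted p = 0.0624). With values of 0 given rank 0, an alternative chosen after seeing the data, the difference was −21.5 points (limma adjusted p = 0.0476). Without psah2k 3 it was −15.4 (limma adjusted p = 0.00504), but the remaining psah2k arrays were all at 0. Their ranks were then only the rank shared by features at 0, so this p-value holds no spread of RPS10 itself in psah2k. RPL34 had a difference of 13.2 points with an interval of −19.6 to 45.9 (adjusted p = 0.470), and it stood at rank 73.6 on psah2k 1 against 11.2 to 27.3 on the other psah2k arrays and 6.86 to 25.7 on the WT arrays. Without psah2k 1 its difference was −0.79 points. RPS6 had a difference of 13.2 points (adjusted p = 0.131), which passed without psah2k 3 (6.54 points, adjusted p = 0.0106) although every remaining array was then at 0. That call holds only the higher shared rank of features at 0 on psah2k arrays.

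**Figure D2:**
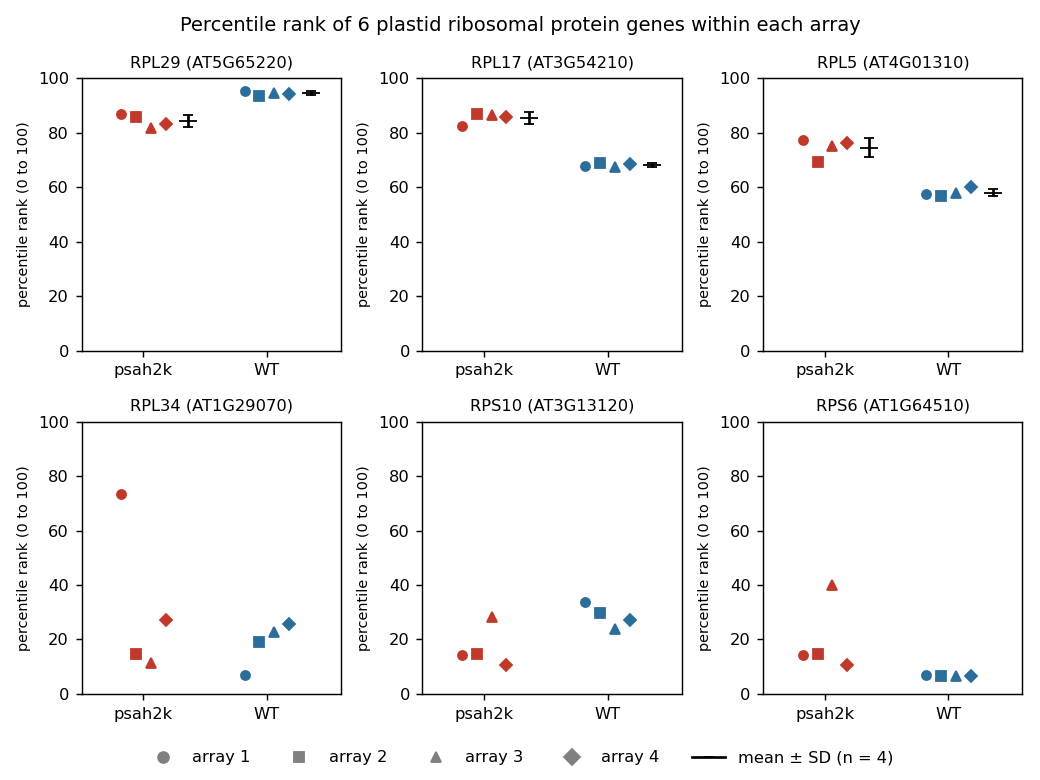
Percentile rank within the array (0 to 100, all 3439 features ranked) of the 6 genes, psah2k left and WT right, with a marker shape for each array number and mean ± SD (n = 4) for the 3 genes above 0 on all arrays. RPL17 and RPL5 stand higher on all psah2k arrays than on all WT arrays, RPL29 stands lower, and RPL34 spreads from 11.2 to 73.6 in psah2k.

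Ratios between members on 1 array were used to set the genes against each other without any scaling between arrays. A ratio does not change with a scale factor per array. A difference between arrays that is additive or varies with intensity would not cancel, and this was not tested. Of the 15 pairs, 3 had at least 3 ratios in each genotype, those among RPL29, RPL17 and RPL5, and all 3 had genotypes that did not overlap. So did 56.3% of the 2664101 pairs of tested features, so the count itself does not mark these genes out. The 3 ratios rest on 3 features, and any 2 of them fix the third.

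The ratio of RPL29 to RPL17 was 1.504, 0.887, 0.668 and 0.792 on psah2k arrays 1 to 4, against 4.34, 3.19, 4.02 and 3.73 on WT arrays 1 to 4. No psah2k array came near a WT array: the nearest 2 were 1.08 log2 units apart. The mean log2 ratio was −0.13 ± 0.50 in psah2k and 1.92 ± 0.19 in WT (SD, n = 4 each), a difference of −2.05. Arrays 1 and 2 alone gave −1.69 and arrays 3 and 4 alone −2.41. Over all pairs the median size of the difference was 1.55 log2 units, and 37.2% of pairs differed by more than this pair.

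The ratio of RPL29 to RPL5 was 2.27, 3.49, 1.57 and 1.57 on psah2k arrays 1 to 4, against 5.72, 4.48, 5.17 and 4.72 on WT arrays 1 to 4. Again the genotypes were apart, most narrowly between psah2k 2 and WT 2. The mean log2 ratio was 1.07 ± 0.55 in psah2k and 2.32 ± 0.15 in WT (SD, n = 4 each), a difference of −1.25, which 58.7% of all pairs exceeded in size.

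The ratio of RPL17 to RPL5 had the smallest mean difference between genotypes of the 3 pairs and the largest SD within psah2k. It was 1.51, 3.94, 2.35 and 1.98 on psah2k arrays 1 to 4, against 1.32, 1.41, 1.29 and 1.26 on WT arrays 1 to 4. The WT arrays agree within a narrow band, whereas psah2k arrays spread widely, with psah2k 1 only 0.10 log2 units above the highest WT array. The mean log2 ratio was 1.20 ± 0.58 in psah2k and 0.40 ± 0.07 in WT (SD, n = 4 each), a difference of 0.80. Of all pairs 72.9% differed by more.

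**Figure D3:**
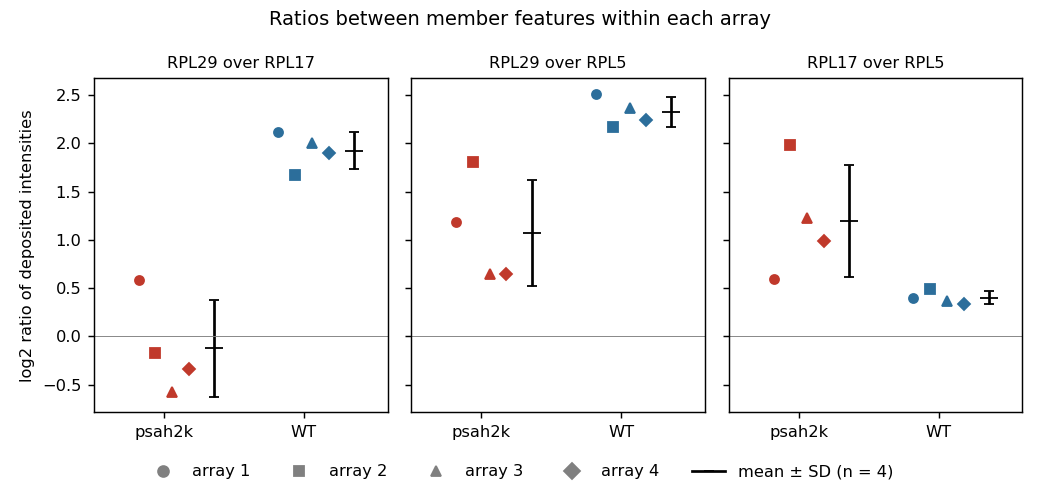
Log2 ratio of deposited intensities of 2 genes on the same array for the 3 pairs measured on all arrays, psah2k left and WT right, with a marker shape for each array number and mean ± SD (n = 4). Both ratios of RPL29 are lower in psah2k, with differences of −2.05 and −1.25, and that of RPL17 to RPL5 is higher by 0.80.

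The size and the direction of the log2 difference depended on how arrays were scaled. After quantile normalization, limma called all 3 tested members, RPL17 and RPL5 as higher and RPL29 as lower, where 53.0% of the 2353 tested features were called (26.3% higher, 26.6% lower in psah2k). The median of the 3 was 0.65 and that of all tested features −0.12. RPL29 had a log2 difference of −1.84 (95% confidence interval −2.18 to −1.49, adjusted p = 6.62e-05), RPL17 of 1.04 (0.69 to 1.39, adjusted p = 0.000832) and RPL5 of 0.65 (0.26 to 1.03, adjusted p = 0.0136).

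On the deposited scale 80.3% of tested features were called, 7.31% as higher and 73.0% as lower. There RPL29 had −2.34 (limma adjusted p = 8.94e-05) and RPL5 −1.09 (adjusted p = 0.000757), both lower in psah2k, and RPL17 had −0.30 with an interval of −0.71 to 0.12 (adjusted p = 0.154). With each array centred on the median of its values above 0, where 51.6% of features were called (34.7% higher, 16.8% lower), RPL17 (1.64) and RPL5 (0.84) were higher and RPL29 (−0.41, interval −0.82 to 0.01, adjusted p = 0.0910) was not called. As a multiple of the median of its array's values above 0, the median used there, RPL29 read 4.86, 4.40, 3.18 and 3.39 on psah2k arrays 1 to 4, against 5.84, 4.501, 5.32 and 5.12 on WT arrays 1 to 4. On that scale psah2k 1 lay within the WT range and the other 3 psah2k arrays below it. With values of 0 included in the median, an alternative chosen after seeing the data, the log2 difference of RPL29 turned to 0.21 (limma adjusted p = 0.523), while the median of all tested features was 0.79, and RPL17 (2.26) and RPL5 (1.46) were called as higher. Centring on the upper quartile, where 57.7% were called (24.1% higher, 33.6% lower), gave −1.12 for RPL29 and 0.93 for RPL17, both called, and 0.14 for RPL5 (adjusted p = 0.610).

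Set against the median of all tested features under the same scaling, the 3 genes kept their order and side. With quantile normalization that median was −0.12. For the deposited values it was −1.77, and with arrays centred on the median or the upper quartile it was 0.18 or −0.53. RPL17 stood above it by 1.16, 1.47, 1.46 and 1.46 log2 units under the 4 scalings in that order, and RPL5 by 0.76, 0.67, 0.66 and 0.66. RPL29 stood below it, at −1.72, −0.58, −0.59 and −0.59 relative to it. The 3 scalings other than quantile normalization differ from each other only by a constant per array, so they are not separate checks. Under all 4, RPL17 exceeded 81.7% to 82.2% of tested features in its difference and RPL5 66.6% to 71.0%, while RPL29 exceeded 11.8% after quantile normalization and 36.4% to 36.5% under the others.

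**Figure D4:**
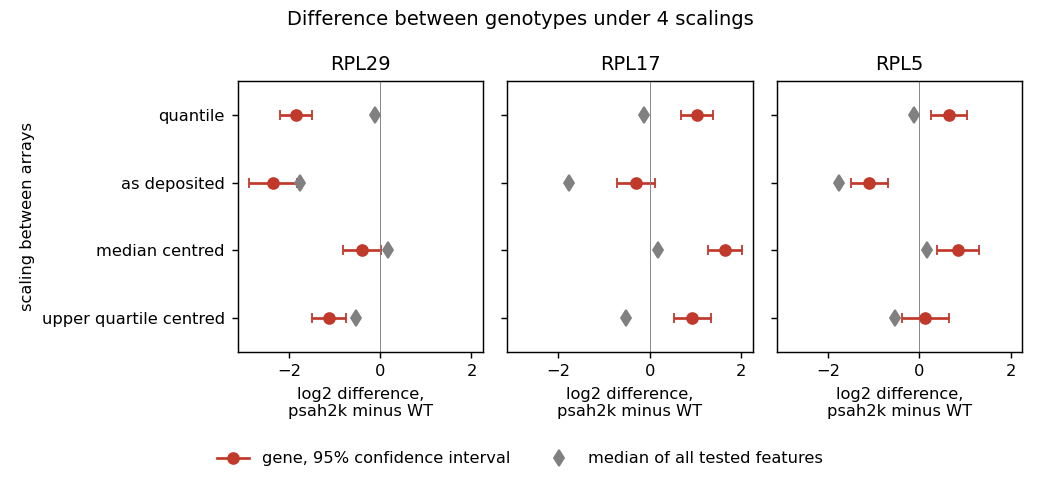
Log2 difference (psah2k minus WT, horizontal axis) of RPL29, RPL17 and RPL5 with its 95% confidence interval under 4 scalings between arrays (vertical axis), and the median of all tested features as grey diamonds. RPL17 and RPL5 lie right of the grey diamond and RPL29 left of it under each scaling, while the position relative to 0 shifts.

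Other genes of plastid translation were scarce on the array under their own names. None of 35 other listed plastid ribosomal proteins, none of 11 plastid translation factors and none of 44 further genes that RefSeq symbols or synonyms name as ribosomal proteins had a feature of its own. Of 14 listed genes for plastid ribosome assembly and ribosomal RNA maturation, 2 did. AT5G14910, which encodes a protein associated with the plastid ribosome, read 0.208, 0, 0.129 and 0.134 on psah2k arrays 1 to 4, against 0.937, 1.001, 1.19 and 0.980 on WT arrays 1 to 4. All psah2k arrays were below all WT arrays, as for 72.6% of tested features. Its log2 difference after quantile normalization, with psah2k 2 left out as it was at 0, was −1.45 (SE 0.20, limma adjusted p = 0.00102). It was called as lower under all 4 scalings (−2.74 as deposited, −0.75 and −1.43 after median and upper quartile centring). Those other than quantile normalization differ only by a constant per array. Called as lower were 26.6% of tested features after quantile normalization, 73.0% as deposited, and 16.8% and 33.6% after median and upper quartile centring. The rank difference of AT5G14910, −29.3 points with psah2k 2 included, was not called (limma adjusted p = 0.118).

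PAC (AT2G48120, PALE CRESS), needed for the maturation of plastid ribosomal RNA, read 0.212, 0.113, 0.115 and 0.0439 on psah2k arrays 1 to 4, against 0.233, 0.283, 0.270 and 0.297 on WT arrays 1 to 4. The genotypes were apart, with psah2k 1 close to WT 1. PAC was called as lower on the deposited scale alone (log2 −1.36, limma adjusted p = 0.0202) and had 0.68 after quantile normalization (adjusted p = 0.146). Its rank difference of 19.6 points, in the other direction from its deposited intensity, was not called (adjusted p = 0.0607). The 2 genes had a median log2 difference of −0.39 after quantile normalization, against −0.12 for all tested features. Of the 10 listed markers of green tissue LHB1B2 alone, a light-harvesting gene, had its own feature, at rank 99.2 on average in psah2k and 99.1 in WT, near the top of the scale. Its deposited intensity was 19.3 ± 1.25 in psah2k and 10.8 ± 2.14 in WT (SD, n = 4 each), with the genotypes apart. LHB1B2 had a log2 difference of 0.01 after quantile normalization (limma adjusted p = 0.961). That method sets values by rank within the array, and the rank was near the top in both genotypes. LHB1B2 was called as higher under the other scalings (0.86 as deposited, 2.80 and 2.09 after median and upper quartile centring). The root, seed storage and flower markers had none.

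The features nearest to each member in percentile rank were sought among 686 features with 1 other gene, by the mean absolute difference over the 8 arrays. For RPL29 they were AT5G06010 (2.36 points) and AT2G36480 (2.42 points), against a median of 42.3 points over all candidates. For RPL17 they were AT3G58610, the ketol-acid reductoisomerase gene of branched-chain amino acid synthesis (1.89 points), and THIC of thiamine synthesis (2.14 points), against a median of 31.8. AT3G58610 averaged rank 86.3 in psah2k and 70.2 in WT, where RPL17 averaged 85.4 in psah2k and 68.3 in WT.

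For RPL5 they were AT4G12740 (1.99 points) and AT3G04210 (3.602 points), against a median of 27.8. The dim members had neighbours that were likewise at 0 on many arrays. RPS10 was nearest to AT4G37230 (3.68 points) and AT5G27560 (3.83 points), each at 0 on 3 psah2k arrays and on no WT array. RPS6 was nearest to AT3G01060 (0.11 points) and AT3G22690 (0.35 points), both at 0 on all 4 WT arrays and 3 psah2k arrays. RPL34 had no close neighbour, the nearest being AT5G65250 (7.44 points) and AT1G77730 (7.63 points). These likenesses describe 8 arrays of 2 genotypes and carry no test.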

How the data were processed

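Per the labels, total RNA of 4 psah2k and 4 WT samples was measured on 1-channel arrays, and groups and numbers were taken from sample titles. The deposited table holds 1 intensity per feature and array on a linear scale; the sources used here do not state the authors' background subtraction or scaling. GEO's platform annotation gave 1 gene for 692 of 3439 features (690 matched to TAIR10.1 RefSeq), several for 870 and none for 1877. Values of 0 were missing in log2 and tied in ranks. Array medians of log2 spanned 2.14, above the limit of 0.1, so quantile normalization was applied. Features needed 3 or more values above 0 in each genotype. These 2353 features, and the percentile ranks of the 3305 above 0 on any array, were tested with limma 3.58.1 in R 4.3.3 (lmFit and eBayes, two-sided, Benjamini-Hochberg, threshold 0.05). Both fits were also run on simulated data, with no values of 0 and each feature's spread equal in both genotypes. That simulation does not cover the values of 0 or the wider spread of psah2k arrays. Ratios used deposited values. The number of arrays limits the precision. Named were all members, the 2 nearest 1-gene features of each in rank, and up to 4 genes of each list. Members and lists were chosen with earlier results of these data known. Alternatives covered scaling, values of 0, dim features, variance model, replicate numbers, averaged arrays and each array left out.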

Additional observations from a re-analysis of the deposited data

Results flagged for a closer look

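In 23 groups of 4 arrays (each member's intensity or rank in a genotype), 4 held an array far from the other 3 by Dixon's ratio. Chance flags about 1 in 20 groups of continuous values, and the groups are not independent. RPL34 read 0.178 on psah2k 1, against 0 to 0.0119 on the other psah2k arrays. On psah2k 3, RPS10 read 0.0110 and RPS6 read 0.0335, both against 0 on the other 3 psah2k arrays. With 3 arrays at 0 the ratio passes for any value above 0 on the fourth, so for these 2 it says nothing more, and the chance rate does not apply to them. The rank of RPS6 on psah2k 3 was 39.9, against 10.7 to 14.7 on the others, where it was at the rank shared by all features at 0.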

How the results depend on the processing

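All 3 tested members were called in log2 intensity without any single array, with the replicate number as a replicate block (1087 features called in all, against 1246 without it) and with only arrays 3 and 4. RPL29 lost its call after median centring, and turned to 0.21 with zeros included in the median, where 1080 features were called higher and 211 lower. RPL5 lost it after upper quartile centring, with arrays 1-2 and 3-4 averaged first (0.65, limma adjusted p = 0.108) and with only arrays 1 and 2 (0.55, adjusted p = 0.163). It was too dim for the filter on brighter features. As deposited, RPL17 (−0.30) and RPL5 (−1.09) had the opposite direction. Leaving out 1 array gave −2.0002 to −1.70 for RPL29, 0.94 to 1.11 for RPL17 and 0.56 to 0.75 for RPL5. The count of called features was 1890 as deposited, 689 with averaged arrays, 820 with only arrays 3 and 4 and 1025 to 1082 without 1 array. Calls split into 620 higher and 626 lower after quantile normalization, 172 and 1718 as deposited, 817 and 396 after median centring, 567 and 790 after upper quartile centring, and 733 and 422 with zeros replaced by the array's lowest positive value. In rank, 1375 features were called by limma, 1069 with the replicate block, 880 with averaged arrays, 234 of 667 ranked among features with 1 gene, and 1035 to 1450 without 1 array. The exact permutation test called 0 features and 0 members after adjustment, with 1731 features and 4 members under 0.05 before it. With averaged arrays the rank of RPL29 missed the threshold (adjusted p = 0.0647). Between 3 and 5 members were called in rank without 1 array, the 5 without psah2k 3, where 1450 of 3305 features were called. The calls added there were RPS10 and RPS6, whose remaining psah2k arrays were all at 0. The difference of RPL34 ran from −0.79 (without psah2k 1) to 20.0 points. With a pseudocount of 0.0156, which lets all 6 members be tested, RPS10 was called as lower (log2 −1.19, adjusted p = 0.0479), and with zeros replaced it was not (−4.32, adjusted p = 0.0653). Of all 15 pairs, 8 had genotypes apart with the pseudocount and 7 with zeros replaced. Of all pairs of features above 0 on any array, 54.9% and 42.6% did. The 3 pairs measured on all arrays stayed apart without any single array. That was fixed beforehand, since leaving out an array cannot make groups overlap that are already apart. Same-numbered arrays of the 2 genotypes deviated together only weakly (r = 0.0561 to 0.126 over 1806 features), though each psah2k array correlated best with the WT array of its own number. Where a result changed, the cause was not tested.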
